A study of Komagataella phaffii GS115 with 12 samples.

Results

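The core histones H3, H4, H2A and H2B are the proteins around which DNA is wrapped in the nucleosome, the repeating unit of chromatin. In budding yeast each is encoded by a pair of near-identical genes, and their transcription is largely confined to S phase, when new DNA has to be packaged, so the mRNA level of a culture follows how much of it is replicating as well as how strongly each gene is read. In Saccharomyces cerevisiae HHT1 and HHT2 encode H3, HHF1 and HHF2 encode H4, HTA1 and HTA2 encode H2A, and HTB1 and HTB2 encode H2B. The genes lie there in divergent pairs, an H3 gene beside an H4 gene and an H2A gene beside an H2B gene. The members were taken as the identifiers of core histone genes, and earlier results of these data were known when they were chosen. Of the 8 identifiers looked for, 7 occurred among the 2390 rows of the table: HHT1 (YBR010W), HHT2 (YNL031C), HHF1 (YBR009C), HHF2 (YNL030W), HTA1 (YDR225W), HTA2 (YBL003C) and HTB1 (YDR224C). The row for HTB2 (YBL002W) was absent, so H2B was followed through HTB1 alone.

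Expression was measured in Komagataella phaffii GS115, the methylotrophic yeast also called Pichia pastoris, in 12 cultures grown in shake flasks and induced with methanol, 3 cultures for each of 4 groups. All strains derive from GS115. The control group was GS115/3.5K, with the empty vector pPIC3.5K integrated, taken after 72 h on methanol. DS56, sampled at the same time, is the strain GS115/DS56. It harbours DS56, a recombinant gene for methionine adenosyltransferase, the enzyme that makes S-adenosyl-L-methionine. G12-CBS holds the same recombinant gene and in addition the weak promoter G12, meant to lower CYS4, and was sampled at both times. L-methionine was added 24 h into induction for every group taken at 72 h. The second G12-CBS group was taken at 24 h with no L-methionine given, and the samples of this strain are called fed G12-CBS (72 h) and unfed G12-CBS (24 h). The number of clones behind each strain was not stated in the labels. Which row, if any, stands for CYS4 or the recombinant gene was not determined here, so the labels were not checked against these genes.

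Values are log2 expression from one-colour Cy3 arrays, 1 value per row and array, compared only within a row. Row identifiers have the form of S. cerevisiae systematic names, and 0 of 2390 matched one of 5040 K. phaffii genes in RefSeq (assembly ASM2700v1). Which K. phaffii transcript the probes of a row capture, and whether rows for copies of the same histone draw on the same transcript, is not known here, so each value belongs to the row and not surely to one gene. No detection flags were used here, so no row was called above background. Values of the whole table ran from 5.62 to 15.76, and the histone rows had means over the 12 arrays from 8.15 (HTB1) to 13.97 (HHF2). Possible levels are sparse at the bright end: the 12 values of HHF2 covered 5 distinct levels with a median step of 0.11 between neighbouring levels of the table, those of HHF1 covered 7 with a step of 0.13, and those of HHT1 covered 6 with a step of 0.07. The steps were 0.01 to 0.05 in the range of the other 4 rows. Array medians were 6.65 to 6.66 in DS56 and unfed G12-CBS, and 6.59 to 6.62 in the control and fed G12-CBS. Whether this division of the arrays reflects an array batch cannot be told apart from the groups. In RNA from whole cultures, fewer cells carrying a transcript and less transcript per cell cannot be told apart either.

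HHT2, HTA2, HHF1 and HTB1 had their highest mean in the empty-vector control and their lowest in DS56 or unfed G12-CBS, with fed G12-CBS in between. HTA1 was low in the same groups, with means of 9.98 in fed G12-CBS and 9.88 in the control. HHT2, an H3 row, fell 2.10-fold in DS56 and 2.09-fold in unfed G12-CBS against the control, and HTA2, an H2A row, fell 1.82-fold and 1.95-fold. HHF1 and HTA1 also fell in both groups, by 1.29-fold to 1.40-fold, and HTB1 fell 1.52-fold in unfed G12-CBS. HHT1 and HHF2 passed the test in none of the 6 comparisons between groups. Tests were made with limma in 1 model of all 12 arrays, with p-values adjusted over the 2390 rows of each comparison and a threshold of 0.05.

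**Figure D1:**
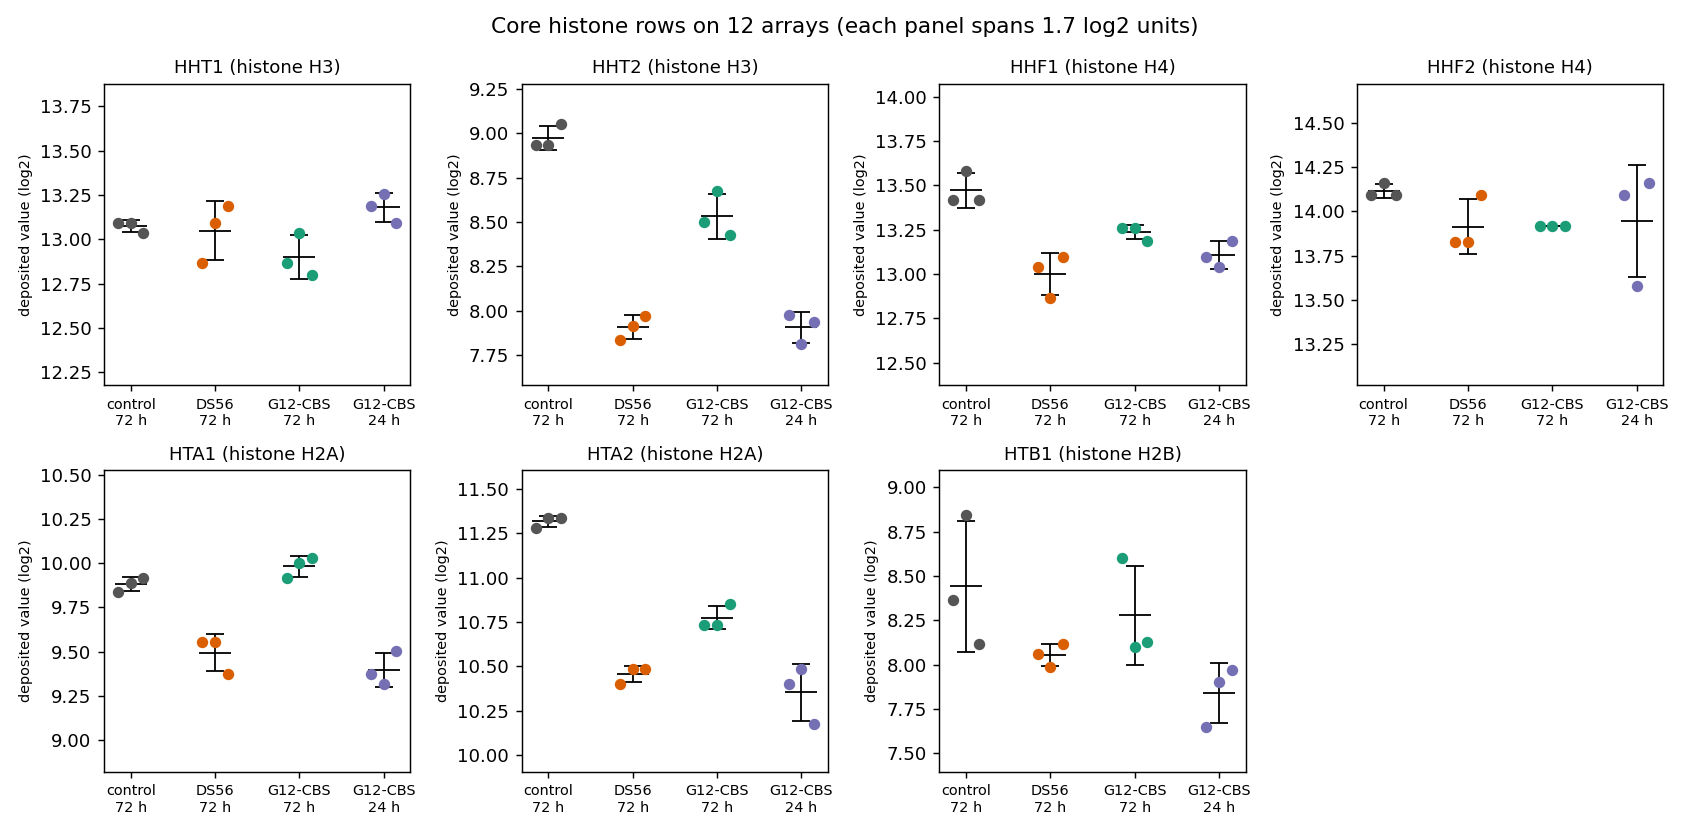
Deposited log2 values of the 7 core histone rows on each array, with the mean and SD of each group of 3 (bars). Points are the 3 cultures of a group, and all panels span the same number of log2 units. HHT2 and HTA2 have all 3 control points above the 9 others, while the control points of HHT1 lie within the range of the others.

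Among the H3 rows, HHT2 stood at 8.94, 8.94 and 9.05 on the control arrays, at 7.83, 7.92 and 7.97 on the DS56 arrays, at 8.50, 8.67 and 8.43 in fed G12-CBS and at 7.98, 7.81 and 7.93 in unfed G12-CBS. The control arrays were above all others, fed G12-CBS came next without overlap, and DS56 and unfed G12-CBS overlapped at the bottom. DS56 differed from the control by a log2 difference of -1.07 ± 0.12 (SE, n = 3 each, adjusted p = 2.03e-06 with limma). Unfed G12-CBS differed from the control by -1.07 ± 0.12 (adjusted p = 2.05e-06 with limma). Fed G12-CBS lay between them, 0.63 ± 0.12 above DS56 (adjusted p = 0.000597), 0.63 ± 0.12 above its own unfed cultures (adjusted p = 0.000605) and -0.44 ± 0.12 from the control (adjusted p = 0.0217, all with limma). That last call was lost in a fit to the 6 arrays of the comparison (adjusted p = 0.162), with array weights (0.133), and without control replicate 3 (0.0602), fed G12-CBS replicate 1 (0.0525) or fed G12-CBS replicate 3 (0.0647). DS56 and unfed G12-CBS differed by 0.00 with a 95% interval from -0.24 to 0.25.

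HHT1, the other H3 row, read 13.10, 13.10 and 13.04 in the control, 12.86, 13.10 and 13.19 in DS56, 12.86, 13.04 and 12.80 in fed G12-CBS and 13.19, 13.26 and 13.10 in unfed G12-CBS. Its DS56 values spanned the control values. The log2 difference of DS56 from control was -0.03, with a 95% interval from -0.28 to 0.23. A fall of the size seen in HHT2 lies outside the interval of this row. HHT1 lies at the bright end, where levels are sparse, and whether its differences are on the same scale as those of HHT2 was not tested. Its widest separation was between fed and unfed G12-CBS, where all 3 fed values lay below the unfed ones. The same held for 625 of all 2390 rows and for 54 of the 160 rows with a mean of at least 8. For HHT1 that difference was -0.28 ± 0.12 (SE, n = 3 each), against the direction of HHT2, and missed the threshold (adjusted p = 0.104 with limma). With a variance trend and robust moderation it passed (adjusted p = 0.0291).

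The H4 row HHF1 stood at 13.41, 13.58 and 13.41 in the control, at 13.04, 12.86 and 13.10 in DS56, at 13.26, 13.26 and 13.19 in fed G12-CBS and at 13.10, 13.04 and 13.19 in unfed G12-CBS. All 9 arrays of the engineered groups were below the 3 control arrays. DS56 differed from the control by -0.47 ± 0.12 (SE, n = 3 each, adjusted p = 0.00885 with limma), or 1.39-fold. Unfed G12-CBS differed from the control by -0.36 ± 0.12 (adjusted p = 0.0338 with limma). This call was lost without control replicate 2 (adjusted p = 0.0972) and without any one unfed G12-CBS array (0.104, 0.117 and 0.0606 for replicates 1 to 3). Fed G12-CBS stood at -0.24 ± 0.12 from the control, which did not pass (adjusted p = 0.239 with limma), with a 95% interval from -0.48 to 0.01.

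HHF2, the other H4 row, read 14.09, 14.16 and 14.09 in the control, 13.83, 13.83 and 14.09 in DS56, 13.92 on all 3 arrays of fed G12-CBS and 14.09, 13.58 and 14.16 in unfed G12-CBS. An SD of 0 on this sparse scale does not measure the spread of cultures. The DS56 and unfed groups both reached into the control range. Its differences from the control were -0.20 in DS56, -0.20 in fed G12-CBS and -0.17 in unfed G12-CBS, each ± 0.14 (SE), and none passed (adjusted p = 0.358, 0.455 and 0.427 with limma). The 95% interval for DS56 ran from -0.50 to 0.10, which includes the HHF1 difference.

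Of the H2A rows, HTA2 stood at 11.28, 11.34 and 11.34 in the control, at 10.40, 10.48 and 10.48 in DS56, at 10.74, 10.74 and 10.85 in fed G12-CBS and at 10.40, 10.48 and 10.17 in unfed G12-CBS. The groups kept the order seen in HHT2, with the control apart at the top and DS56 and the unfed arrays overlapping at the bottom. Against the control the log2 differences were -0.86 ± 0.12 in DS56 (SE, n = 3 each, adjusted p = 2.94e-05) and -0.97 ± 0.12 in unfed G12-CBS (adjusted p = 6.76e-06, both with limma). Fed G12-CBS was -0.54 ± 0.12 from the control, 1.46-fold lower (adjusted p = 0.00540 with limma). With the spread of the 6 arrays compared this p was 0.0663, and with array weights 0.0515. Between 24 h and 72 h HTA2 rose by 0.42 ± 0.12 (adjusted p = 0.0130 with limma, 0.0929 without unfed G12-CBS replicate 3). Fed G12-CBS was 0.32 ± 0.12 above DS56, which missed the threshold (adjusted p = 0.0591 with limma) and passed after centring on array medians (0.0339), without the dimmest rows (0.0490) and with a variance trend (0.0237).

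HTA1, the other H2A row, read 9.84, 9.89 and 9.92 in the control, 9.56, 9.56 and 9.37 in DS56, 9.92 to 10.03 on the 3 arrays of fed G12-CBS and 9.37, 9.32 and 9.51 in unfed G12-CBS. Here fed G12-CBS reached the control level, and both groups lay above DS56 and the unfed group without overlap. DS56 was -0.39 ± 0.11 from the control (SE, n = 3 each, adjusted p = 0.0258 with limma). That call sat near the threshold and was lost with the 6 arrays compared (adjusted p = 0.0527), with array weights (0.0515) and without control replicate 3 (0.0572), DS56 replicate 1 (0.0544) or DS56 replicate 3 (0.113). Unfed G12-CBS was -0.48 ± 0.11 from the control (adjusted p = 0.00643 with limma). HTA1 was 0.49 ± 0.11 higher in fed G12-CBS than in DS56 (adjusted p = 0.00446) and 0.58 ± 0.11 higher than in unfed G12-CBS (adjusted p = 0.000973, both with limma), or 1.40-fold and 1.50-fold. Fed G12-CBS and the control differed by 0.10, with a 95% interval from -0.14 to 0.34.

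The H2B row HTB1 had the widest spread between cultures, at 8.36, 8.84 and 8.12 in the control, 8.06, 7.99 and 8.12 in DS56, 8.60, 8.10 and 8.13 in fed G12-CBS and 7.65, 7.90 and 7.97 in unfed G12-CBS. The unfed arrays lay below all 9 others, while the 3 groups at 72 h met or overlapped near 8.1. Unfed G12-CBS was -0.60 ± 0.17 from the control (SE, n = 3 each, adjusted p = 0.0173 with limma), a call lost without control replicate 2 (adjusted p = 0.0856), unfed G12-CBS replicate 1 (0.0987) or unfed G12-CBS replicate 2 (0.0537). DS56 was -0.39 ± 0.17 from the control, which did not pass (adjusted p = 0.121 with limma) but did without control replicate 3 (0.0358). Between 24 h and 72 h of G12-CBS the difference was 0.44 ± 0.17 (adjusted p = 0.0669 with limma). This difference passed after centring on array medians (0.0439), with array weights (0.0160), and without control replicate 2 (0.0297), control replicate 3 (0.0411) or fed G12-CBS replicate 2 (0.0493).

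**Figure D2:**
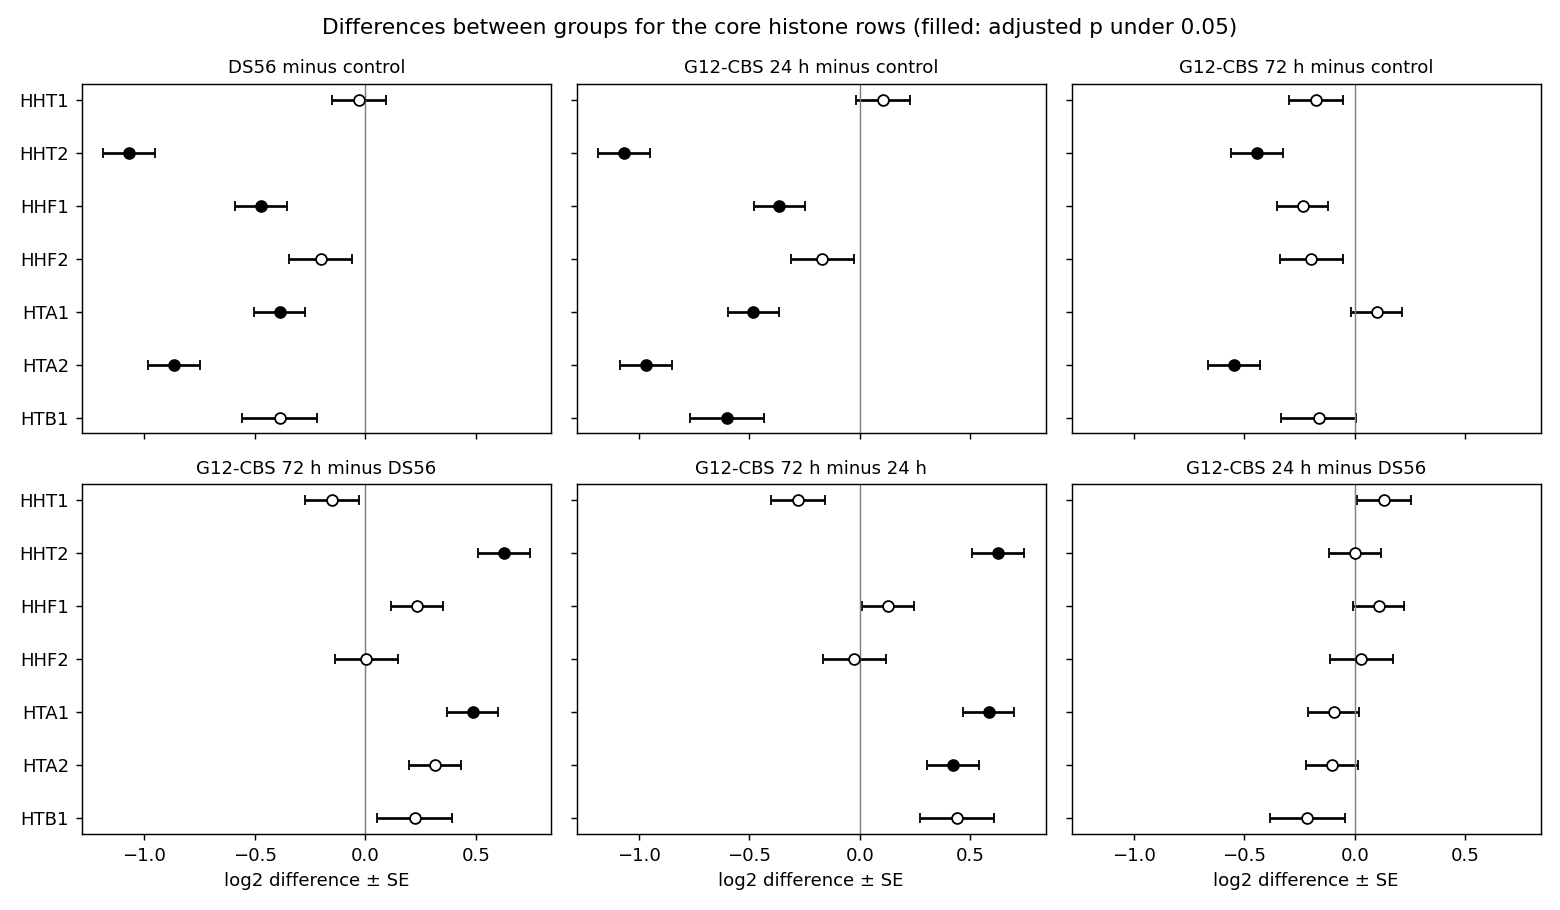
Log2 difference of each core histone row in the 6 comparisons, with limma's SE as bars and filled points where the adjusted p is under 0.05. Filled points lie to the left of 0 in the comparisons with the control and to the right where fed G12-CBS is set against DS56 or its own unfed cultures, and no point is filled between unfed G12-CBS and DS56.

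The comparison of DS56 with the control asks what the recombinant gene changes at equal time and feeding. Of the 7 histone rows 4 fell (HHT2, HTA2, HHF1 and HTA1) and 0 rose, where 6.07% of all 2390 rows fell and 12.1% rose. All 7 differences were below 0, as were those of 1071 of the 2390 rows. That of HHT1 was only -0.03 and turned to 0.066 without DS56 replicate 1. The median of the 7 was -0.39 on the log2 scale, against a median of 0.04 over all rows. Bright rows were called more often: among 160 rows whose mean over the arrays was at least 8, a limit chosen after seeing the data that all 7 histone rows meet, 28.1% fell and the median difference was -0.05. Of these 160 rows 43 rose, and 87 had a difference below 0. The 3 DS56 values lay below the 3 control values in 4 of the 7 rows, against 12.9% of all rows and 36.2% of the bright ones.

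In unfed G12-CBS against the control, strain, time and feeding differ together and cannot be told apart. HHT2, HTA2, HTB1, HTA1 and HHF1 fell, 5 of 7 rows, and 0 rose, where 6.86% of all rows and 32.5% of the bright rows fell and 12.9% of all rows rose. Of the 160 bright rows 43 rose. The median difference of the histone rows was -0.48, against 0.04 over all rows and -0.09 over the bright ones. HHT1 was the exception in sign, at 0.10, with a 95% interval from -0.15 to 0.36. The number of histone rows that fell was 3 without control replicate 2, unfed G12-CBS replicate 1 or unfed G12-CBS replicate 2. This comparison and that of DS56 share the control arrays, so their like values are not independent.

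Fed G12-CBS against the control joins both engineering steps at the same time and feeding. HTA2 and HHT2 fell, 2 of 7 rows, and 0 rose, where 4.18% of all rows and 16.9% of the bright rows fell and 5.02% of all rows rose. Of the 160 bright rows 17 rose. The median difference of the histone rows was -0.20, against -0.02 over all rows and -0.15 over the bright ones, so the middle of the 7 lay close to that of rows of like brightness. With the 6 arrays compared or with array weights 0 of the 7 were called by limma, where 51 and 97 of all 2390 rows were. In the 12-array model 2 of 7 had an unadjusted p under 0.05, against 536 of all rows and 76 of the 160 bright rows. This comparison joins the groups of wider spread. On simulated data 30.8% of the calls of the 12-array model in it were false, more than its threshold allows. The share was 4.35% in unfed G12-CBS against DS56 and 11.5% to 16.7% in the remaining comparisons, also above the threshold.

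Placing fed G12-CBS beside DS56 asks what the weak promoter at CYS4 added to the recombinant gene. HHT2 and HTA1 were higher in G12-CBS, 2 of 7 rows, and 0 were lower, where 8.33% of all rows and 24.4% of the bright rows were higher and 14.1% of all rows were lower. Of the 160 bright rows 46 were lower. Values of the strains did not overlap in 4 rows, HHF1, HHT2, HTA1 and HTA2, each higher in G12-CBS, against 13.6% of all rows and 29.4% of the bright rows. The median histone difference was 0.24, against -0.04 over all rows and -0.05 over the bright ones. The count was 4 with a variance trend and robust moderation, where HTA2 and HHF1 (adjusted p = 0.0494 with limma) were added.

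From 24 h, before feeding, to 72 h, after feeding, G12-CBS gained in HHT2, HTA1 and HTA2, 3 of 7 rows, and 0 fell, where 8.24% of all rows and 28.1% of the bright rows rose and 14.6% of all rows fell. Of the 160 bright rows 48 fell. Time on methanol and L-methionine feeding changed together here. The rises were 1.54-fold for HHT2, 1.50-fold for HTA1 and 1.34-fold for HTA2. The median histone difference was 0.42, against -0.05 over all rows and -0.02 over the bright ones. Both groups that stood low in the histone rows, DS56 and unfed G12-CBS, are those with the higher array medians given above, and the part of that division in these differences was not tested. The median SD of rows was also lower in these 2 groups (0.112 and 0.0948) than in the control and fed G12-CBS (0.185 and 0.177). Centring each array on its median left the calls of HHT2, HTA1 and HTA2 in place and added HTB1. It removes only a shift common to all rows of an array, so it cannot show whether the division acts on single rows.

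Unfed G12-CBS and DS56 did not differ beyond the threshold in any histone row. Strain, time and feeding differ together here and cannot be told apart, and these are the groups with the higher array medians. Over all rows 23 of 2390 were called, all of them among the 160 bright rows. This count was 66 with the 6 arrays compared and 76 with array weights. With 3 arrays a group, an absence of calls does not show that rows are alike. By limma 0 of 7 rows passed, where 0.962% of all rows and 14.4% of the bright rows passed. An unadjusted p under 0.05 was found in 0 of 7, against 138 of all 2390 rows and 56 of the 160 bright rows. In HTB1 alone the 3 unfed values all lay below the 3 DS56 values, as in 10.2% of all rows and 23.1% of the bright rows. The 7 differences ran from -0.21 (HTB1) to 0.13 (HHT1), with a median of 0.00. The widest 95% interval, that of HTB1, ran from -0.57 to 0.14, so differences of this size are not excluded by the intervals.

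**Figure D3:**
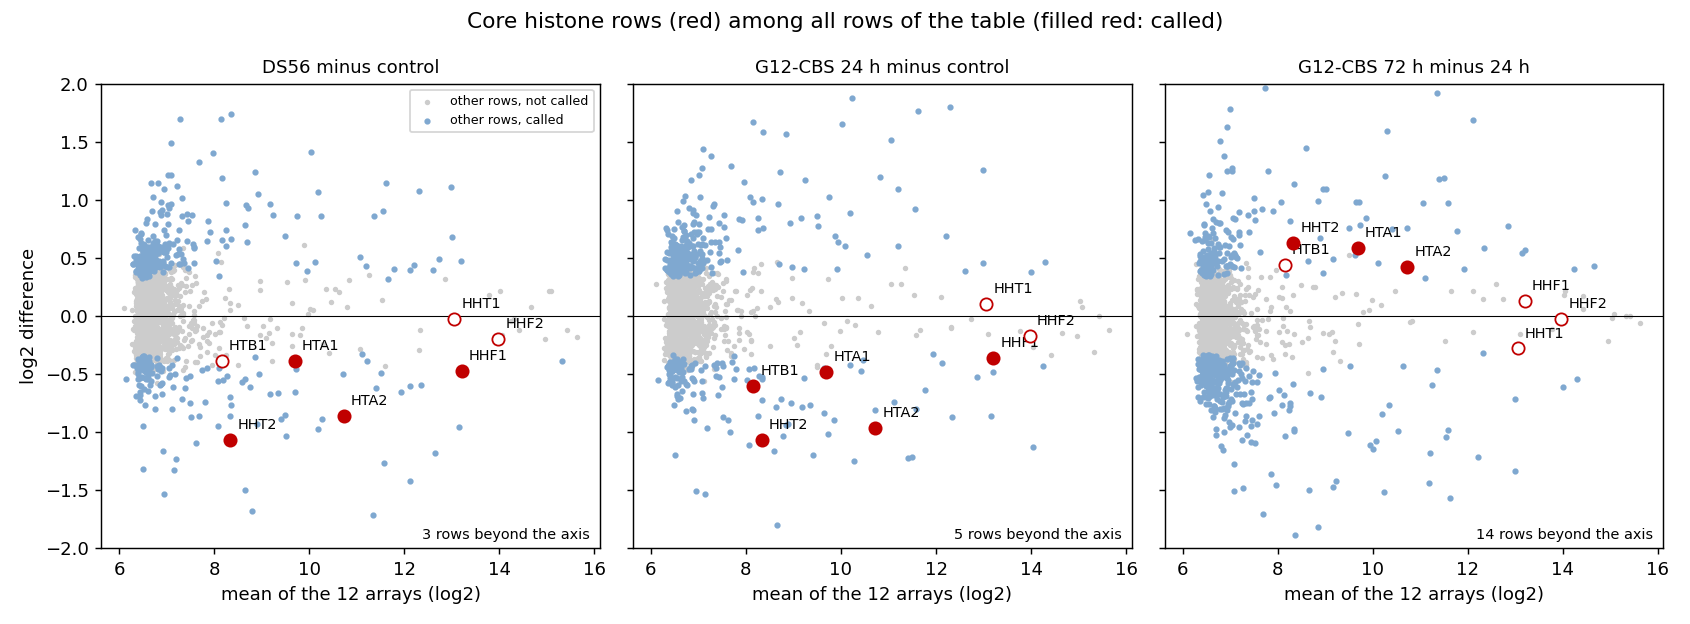
Log2 difference against the mean of the 12 arrays for every row, in 3 of the 6 comparisons, with core histone rows in red (filled where the adjusted p is under 0.05) and other rows in blue where called and grey where not. The vertical axis ends at 2, and 3, 5 and 14 rows lie beyond it. HHT2 and HTA2 lie near -1 against the control, among many called bright rows in both directions.

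Across all groups, the 3 control arrays stood above the 9 others in 3 of the 7 histone rows, HHF1, HHT2 and HTA2. The same held for 3.10% of all rows and 15.6% of the bright rows. The 3 arrays of unfed G12-CBS lay below the 9 others in 1 histone row, HTB1, as in 2.13% of all rows and 13.8% of the bright rows.

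The order of the groups differed between rows. For HHT2 the control, fed G12-CBS and the pair of low groups each differed from the next. For HTA2 the control differed from fed G12-CBS, but the step from fed G12-CBS to DS56 did not pass, nor did the step from DS56 to the unfed group. For HTA1 the top place was shared by fed G12-CBS and the control (adjusted p = 0.685 with limma), and the step down to DS56 from either passed. For HHF1 and HTB1 no step between neighbouring groups passed, and only comparisons across the order did.

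Rows for copies of the same histone, and rows for partners of a divergent S. cerevisiae gene pair, were set against each other within each array, which removes any shift common to an array. The pairs were picked after the values were seen. The difference HHT2 minus HHT1 was -4.16, -4.16 and -3.98 in the control, -5.03, -5.18 and -5.22 in DS56, -4.37, -4.36 and -4.37 in fed G12-CBS and -5.21, -5.45 and -5.16 in unfed G12-CBS. All control values were above all others, and fed G12-CBS lay apart from both low groups. The mean of HHT2 minus HHT1 differed from the control by -1.04 in DS56 and by -1.17 in unfed G12-CBS. This largely restates HHT2, which alone differed by -1.07 in both groups, while HHT1 differed by -0.03 and 0.10. Only the change between groups carries meaning here, since levels of different rows are not comparable.

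HTA2 minus HTA1 was 1.44, 1.45 and 1.42 in the control, 0.85, 0.93 and 1.11 in DS56, 0.82, 0.74 and 0.82 in fed G12-CBS and 1.03, 1.17 and 0.67 in unfed G12-CBS. The 9 engineered arrays were all below the control, by -0.48, -0.64 and -0.48 on average in these groups, and this includes fed G12-CBS, where HTA1 overlapped the control. HHF2 minus HHF1 differed from the control by 0.27 in DS56, 0.04 in fed G12-CBS and 0.19 in unfed G12-CBS, the last 2 with overlap. Between the H2B row and the H2A row, HTB1 minus HTA1, no pair of groups was free of overlap, and the mean was -1.44 in both the control and DS56. For the H3 rows against their H4 partners, HHT1 minus HHF1 differed from the control by 0.45 in DS56 and HHT2 minus HHF2 by -0.87, with opposite signs. With 3 arrays against 3, the two-sided exact permutation test cannot go below p = 0.1, which 20 of the 36 comparisons of 6 pairs reached (Benjamini-Hochberg adjusted p = 0.18). Rows recur between pairs and groups between comparisons, so these are not independent results.

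**Figure D4:**
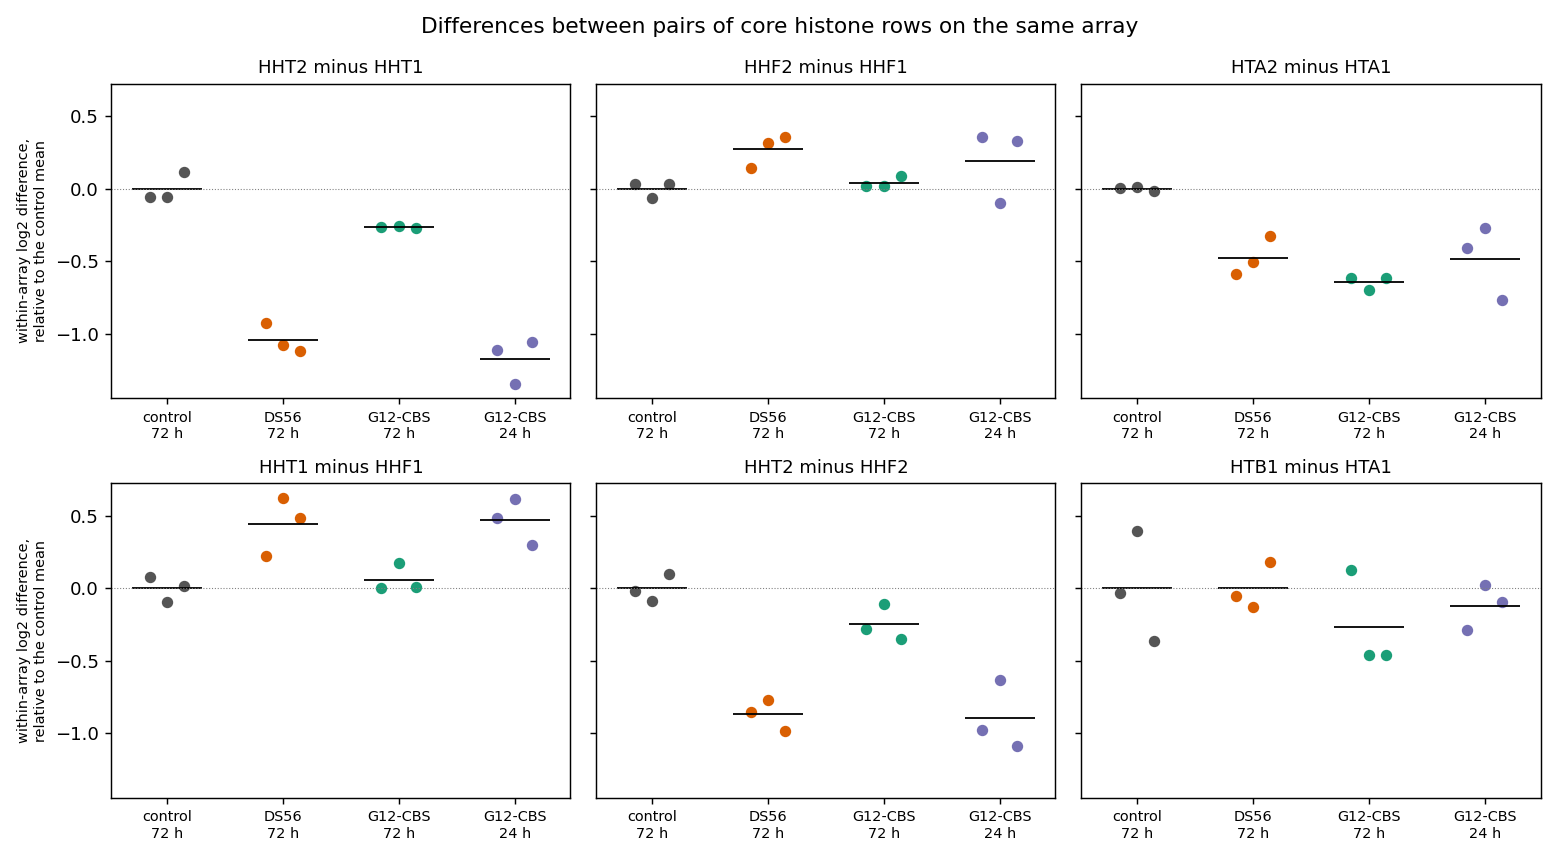
Within-array log2 difference between 2 histone rows, shown relative to the control mean, for 3 pairs of copies (top) and 3 pairs of partners (bottom). Points are arrays and lines are group means. HHT2 minus HHT1 lies about 1 log2 unit below the control in DS56 and unfed G12-CBS, while HTB1 minus HTA1 overlaps in all groups.

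The rows most like each histone row were taken from the 1191 other rows whose SD over the 12 arrays was at least the median SD. Pearson correlations over the 12 arrays are given as a description, since arrays of a group share its level. HHT2 was followed most closely by YOL080C, YOL013W-A and YDR508C (r = 0.98 each), YJR027W (0.97) and YFR012W-A (0.96). HTA2 shared YOL080C (0.97) and YFR012W-A (0.93) with HHT2, beside YNL067W (0.94), YDR409W (0.94) and YGL189C (0.93). The 2 histone rows themselves correlated at 0.94, and only 3 of the 1191 rows were closer to HTA2 than HHT2 was.

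HTA1 was most like YML028W, YAL003W, YOR072W-B and YGL147C (0.93 each) and YJR120W (0.92). HHF1 was most like YCR012W (0.92), YBR171W (0.91), YMR114C (0.91), YDL099W (0.90) and YOR023C (0.90), and 8 of the 1191 rows were closer to it than HHT2 was, at 0.89. HTB1 followed YCL054W (0.93), YOR358W (0.92), YDR064W (0.89), YGL212W (0.88) and YPR004C (0.85). The rows closest to HHT1 were YJR091C (0.82), YOL103W-A (0.80), YHR102W, YNL314W and YGR136W (0.78 each). HHT1 correlated with HHT2 at -0.22 and with HTA1 at -0.65. HHF2 was closest to YGR204C-A (0.76), followed by YNL293W and YIR002C (0.62 each), YLR412C-A (0.60) and YMR114C (0.56).

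Other rows of the histone pathway were taken from 2 lists of S. cerevisiae systematic names: one of 23 identifiers for other histones, histone chaperones and regulators of histone genes, of which 9 were in the table, and one of 24 for DNA replication and the cell cycle, of which 10 were. The files pair no symbols with these identifiers, so they are given without names. Unlike the histone rows, most lay low in the range, where bright-row shares do not apply.

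In the chromatin list, 1 row rose and 1 fell in DS56 against the control, and 1 rose and 1 fell in unfed G12-CBS against the control. In fed G12-CBS against the control 0 of 9 passed by limma. There an unadjusted p under 0.05 was found in 0 of 9, against 536 of all 2390 rows. Over all rows 12.1% rose and 6.07% fell in the first of these, 12.9% and 6.86% in the second and 5.02% and 4.18% in the third, so counts of 1 in 9 are near the background. The list's medians in these comparisons were 0.04, 0.02 and -0.07. YJL115W read 7.94, 8.14 and 8.07 in the control and 7.69, 7.60 and 7.51 in DS56, a difference of -0.45 ± 0.12 (SE, n = 3 each, adjusted p = 0.0132 with limma, 0.0648 without DS56 replicate 3). It was the row of this list that fell with the histone rows in DS56. YNL246W went the other way, from 6.97, 6.59 and 6.42 in the control to 7.16, 7.18 and 7.33 in DS56, 0.56 ± 0.15 higher (adjusted p = 0.0159 with limma). This was lost without control replicate 3 (0.0707), DS56 replicate 2 (0.0577) or DS56 replicate 3 (0.0726). In unfed G12-CBS it was 0.49 ± 0.15 above the control (adjusted p = 0.0313 with limma). That call was lost after centring (0.0545), without DS56 replicate 2 (0.0524) and without control replicate 2, control replicate 3 or any one unfed array (up to 0.128). In fed G12-CBS YNL246W was -0.71 ± 0.15 from DS56 (adjusted p = 0.00208) and -0.64 ± 0.15 from the unfed cultures (adjusted p = 0.00497, both with limma). YBR215W read 6.11, 6.17 and 6.22 in unfed G12-CBS, below the fed values of 6.61, 6.30 and 6.76 (0.39 ± 0.13, adjusted p = 0.0403 with limma) and below the control (-0.39 ± 0.13, adjusted p = 0.0443 with limma). Leaving out any one unfed G12-CBS array or fitting the 6 arrays alone ended both YBR215W calls, with adjusted p from 0.0517 to 0.142, as did some other alternatives (up to 0.152).

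In the replication and cell cycle list, 2 of 10 rows rose and 0 fell in DS56 against the control, where 12.1% of all rows rose and 6.07% fell. The same count held for unfed G12-CBS against the control, where 12.9% rose and 6.86% fell, so the list's counts lie near these shares. YJL026W read 5.91, 6.27 and 6.17 in the control, 7.00, 6.98 and 6.86 in DS56, 6.26, 6.15 and 6.53 in fed G12-CBS and 7.00, 6.78 and 7.00 in unfed G12-CBS. Its values in DS56 and unfed G12-CBS lay above those of the other groups, while HHT2, HTA2 and HTA1 were low in that pair of groups. Its differences were 0.83 ± 0.13 for DS56 against the control (SE, n = 3 each, adjusted p = 0.000232), 0.81 ± 0.13 for unfed G12-CBS against the control (0.000241) and -0.63 ± 0.13 for fed G12-CBS against DS56 (0.00185, all with limma). Against the unfed cultures, fed G12-CBS stood at -0.61 ± 0.13 (adjusted p = 0.00247 with limma). Its level lies near the median of the arrays and was not shown to be above background. YPR119W was 0.39 ± 0.12 higher in DS56 than in the control (adjusted p = 0.0284 with limma), which was lost after quantile normalization (0.0578) and after centring (0.0531), and without control replicate 1, control replicate 2 or any one DS56 array (up to 0.11). It was 0.38 ± 0.12 higher in unfed G12-CBS than in the control (adjusted p = 0.0298 with limma), lost under the same scalings (0.0636 and 0.0579) and without control replicate 1 or 2 or unfed replicate 1 or 2 (up to 0.135).

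Against DS56, fed G12-CBS had 1 higher and 2 lower rows of this list, and against its unfed cultures 0 higher and 2 lower. Over all rows 8.33% were higher and 14.1% lower against DS56, and 8.24% and 14.6% against the unfed cultures, so these counts too are near the background. YLR274W read 6.16, 6.22 and 6.23 in fed G12-CBS and 6.72, 6.58 and 6.68 in the unfed cultures, a difference of -0.46 ± 0.13 (adjusted p = 0.0121 with limma, 0.0563 without unfed G12-CBS replicate 1). Against DS56 its difference was -0.36 ± 0.13 (adjusted p = 0.0474 with limma). This call was lost in most alternatives: with the replicate block, quantile normalization, centring or array weights. Leaving out any one DS56, fed or unfed array also ended it (adjusted p up to 0.16). YPR019W was 0.54 ± 0.16 higher in fed G12-CBS than in DS56 (adjusted p = 0.0193 with limma), which was lost without DS56 replicate 1 (0.0599), DS56 replicate 2 (0.107) or fed G12-CBS replicate 3 (0.0972). The list's median difference was 0.05 in DS56 against the control, where all rows had 0.04. Between unfed G12-CBS and DS56, 0 rows of either list passed by limma, where 23 of all 2390 rows did. An unadjusted p under 0.05 was found in 0 rows of either list, against 138 of all rows.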

How the data were processed

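Total RNA from 12 cultures was hybridised to 12 NimbleGen one-colour arrays, 3 per group, from separate cultures per the labels. The authors deposited log2 values, 1 per row and array, with RMA named in the submitters' processing notes without a version, and no background correction or array design is stated. No scaling was added to the deposited values. With 3 arrays a group, their number limits the precision. Groups came from the sample titles; fed G12-CBS is the 72 h group and unfed G12-CBS the 24 h group. All 6 pairs of groups were compared by linear models from limma 3.58.1, run in R 4.3.3 and moderated by eBayes, with two-sided tests, in 1 model of the 4 groups over 12 arrays, with Benjamini-Hochberg adjustment over 2390 rows. The model was tested on simulated data with each group's own spread: it recovered the larger changes, but false calls exceeded the nominal share in all comparisons but unfed G12-CBS against DS56, most of all in fed G12-CBS against the control. SE is limma's moderated standard error, SD the spread of the 3 cultures. The members and lists were chosen with earlier results of these data known. Every histone row present was named, and from each list rows that passed with no overlap between groups, at most 4 per comparison. The alternatives were a replicate block, the 6 arrays compared, quantile normalization, median centring, array weights, robust moderation with a variance trend, removal of rows in the lowest 25% by mean and leaving out each array. Replicate numbers were not treated as pairs. No sequences are shown, since no reference sequences were used here. Figures were drawn with matplotlib 3.10.9.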

Additional observations from a re-analysis of the deposited data

How the results depend on the processing

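Across the 42 differences of histone rows, 279 of 294 alternative fits and 472 of 504 fits without 1 array kept the direction and the side of the threshold. These shares are not a measure of stability. The replicate block, the 6 arrays compared, removal of dim rows and the variance trend cannot change a difference, only its p. Leaving out an array outside the comparison cannot either. Quantile normalization left the histone differences of DS56 from the control unchanged. Differences that never passed also count as kept. Sign changes were limited to differences that lay between -0.17 and 0.03 in the main model and passed in no fit. These were HHF2 in fed against unfed G12-CBS, at 0.022 after centring (-0.21 to 0.083 without 1 array), and HHT2 in unfed G12-CBS against DS56, at -0.0011 after centring (-0.036 to 0.049 without 1 array). Without 1 array, HHF2 ran from -0.28 to 0.011 in unfed G12-CBS against the control, from -0.078 to 0.21 in unfed G12-CBS against DS56 and from -0.039 to 0.094 in fed G12-CBS against DS56. HHT1 ran from -0.096 to 0.066 in DS56 against the control and HTB1 from -0.33 to 0.038 in fed G12-CBS against the control. The number of histone rows called without 1 array was 1 to 2 for fed G12-CBS against the control, 3 to 5 for unfed G12-CBS against the control, 2 for fed G12-CBS against DS56, 3 to 4 for DS56 against the control and 2 to 4 for fed against unfed G12-CBS. It was 0 for fed G12-CBS against the control with the 6 arrays compared and with array weights, and 4 for fed G12-CBS against DS56 with a variance trend. Over all rows, the calls of fed G12-CBS against the control went from 220 to 51 with the 6 arrays compared and to 97 with array weights, and those of unfed G12-CBS against DS56 from 23 to 66 and 76. Without 1 array the calls over all rows were 239 to 480 for DS56 against the control, 355 to 586 for fed G12-CBS against DS56, 15 to 29 for unfed G12-CBS against DS56 and 270 to 518 for unfed G12-CBS against the control. The cause of these changes was not tested. With the replicate block, the histone rows called numbered 4, 2, 2, 3, 0 and 5 for DS56 against the control, fed G12-CBS against DS56, the control and the unfed cultures, and unfed G12-CBS against DS56 and the control, as without it, and the calls over all rows were 395, 534, 216, 539, 20 and 457. Same-numbered arrays' deviations from their group means correlated at -0.12 to 0.18, above 0.1 in 2 of 18 pairs, so the numbers were not taken as a pairing. The 16 differences of list rows all passed in the main model, and 62 of their 300 fits were no longer past the threshold. No signal over background was used here, and the sparse levels at the bright end limit what HHF1, HHF2 and HHT1 can show.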
